A study of Mus musculus with 72 samples.

Results

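The collagens were examined in adult mouse hearts from an RNA sequencing series on the aryl hydrocarbon receptor (AHR), a ligand-activated transcription factor that binds dioxins. Members were all protein-coding mouse genes in the count table whose symbol reads Col, a number, a and a number, which gave 44 genes of 24237. Hearts of C57BL/6J mice aged 10 months (9 months in the labels) were separated into right atrium (RA), left atrium (LA) and ventricles (V), and 3 mice of each sex and condition gave 72 libraries. Naïve mice were Ahr+/+ offspring of dams given corn oil, and Ahr-/- mice carried the germline deletion of Ahr and came from untreated dams. The remaining Ahr+/+ mice were exposed in utero to TCDD, the dioxin with the strongest affinity for the AHR, which the dams received by gavage at 0.1 µg/kg (low dose) or 1 µg/kg (high dose) on 3 days of gestation. The labels place the first gavage on embryonic day 13.5 and the last on 18.5, the study's methods place all of them earlier, and the labels name TCDD in every treatment entry. No adult mouse was dosed, and the labels do not tell which 3 libraries share a heart. The cell type entry reads cardiomyocytes, but the RNA was of whole tissue, with endothelial, fibroblast and smooth muscle markers in every library, so fewer cells of a type and less RNA per cell cannot be told apart.

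Collagens are extracellular matrix proteins whose chains wind into a rope-like helix. Collagens I and III form the fibrils that give the heart wall its tensile strength, collagen V regulates fibril growth, collagen IV builds the sheet-like network of basement membranes around muscle cells and capillaries, and collagen VI forms beaded filaments next to cells. In the heart, cardiac fibroblasts make most of the fibrillar chains, whereas endothelial cells and other cells that sit on a basement membrane contribute collagen IV. By structure, the 44 genes comprised 11 fibril-forming, 9 fibril-associated, 6 basement membrane network, 6 beaded filament, 4 transmembrane, 3 short-chain and 2 multiplexin genes, with 1 anchoring fibril gene (Col7a1) and 2 others (Col26a1 and Col28a1).

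The stretches 5′ of the genes that recur below are shown because all 3 collagen IV pairs are arranged head to head and because the AHR binds DNA at a GCGTG core. They come from RefSeq on GRCm38.p6, run 5′ to 3′ on the strand of the named gene, and carry capitals where GCGTG or its reverse complement CACGC was found. The first is the 71 bases between Col4a4 and Col4a3 on chromosome 1 (chr1:82586850-82586920, minus strand). The others are the 250 bases before the transcript start in the RefSeq promoter table for Col4a6 (chrX:141474077-141474326, minus strand), Col4a5 (chrX:141475169-141475418, plus strand) and Col5a3 (chr9:20815068-20815317, minus strand).
Col4a4: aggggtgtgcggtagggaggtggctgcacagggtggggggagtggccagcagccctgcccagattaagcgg
Col4a6: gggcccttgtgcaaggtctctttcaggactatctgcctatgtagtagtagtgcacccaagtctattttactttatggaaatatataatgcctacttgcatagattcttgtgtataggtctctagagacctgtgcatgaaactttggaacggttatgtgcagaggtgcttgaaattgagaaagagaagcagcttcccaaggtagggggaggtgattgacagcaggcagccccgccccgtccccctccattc
Col4a5: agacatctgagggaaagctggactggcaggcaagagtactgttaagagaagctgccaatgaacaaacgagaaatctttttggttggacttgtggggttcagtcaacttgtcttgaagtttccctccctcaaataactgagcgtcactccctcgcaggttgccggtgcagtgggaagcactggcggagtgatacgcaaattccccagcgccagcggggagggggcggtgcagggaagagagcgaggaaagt
Col5a3: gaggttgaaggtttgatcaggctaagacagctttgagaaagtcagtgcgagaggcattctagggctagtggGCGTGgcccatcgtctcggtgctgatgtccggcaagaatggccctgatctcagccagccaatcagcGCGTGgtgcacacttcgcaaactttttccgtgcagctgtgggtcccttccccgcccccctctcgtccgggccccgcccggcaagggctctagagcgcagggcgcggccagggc
Gene coordinates elsewhere are those of GENCODE, whose Col4a5 begins upstream of that start, so that the Col4a5 stretch reaches 34 bases into it. The GC content was 69.0% in the Col4a4 stretch, 47.6% before Col4a6, 54.0% before Col4a5 and 62.8% before Col5a3. The motif was found 2 times before Col5a3 and not in the other 3 stretches. Over all genes, 28.2% of 32851 stretches of 250 bases held the motif, and among the collagens 8 of the 35 with a stretch did (22.9%). Such a match describes letters and not a binding site.

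The libraries held 11873417 to 28789382 counts (median 19231739), so that 3 counts corresponded to 0.253 CPM (counts scaled to 1000000 per library) in the smallest and 0.104 CPM in the largest. Ahr was at 8.59 to 30.8 CPM in the naïve libraries and at 2.00 to 9.23 CPM in the Ahr-/- libraries. In 17 libraries, sex or chamber genes went against a label. In 8 of them the sex did: libraries 50, 56, 62 and 68, labelled female right atrium, had the Xist and Y-linked counts of males, and libraries 53, 59, 65 and 71, labelled male ventricle, those of females. An atrial level was taken as at least 600 CPM of Myl4, the atrial myosin light chain. By Myl4, 8 atrial libraries (4, 11, 23, 24, 51, 57, 63 and 69) were at a ventricular level and 5 ventricular libraries (46, 53, 59, 65 and 71) at an atrial level. Among libraries 49 to 72 the mismatches fell on the same labels in every condition. They were 50, 51 and 53 in naïve and 56, 57 and 59 in Ahr-/- mice. After the high dose they were 62, 63 and 65, and after the low dose 68, 69 and 71. These are thus one repeated pattern, whose cause was not tested, and libraries 4, 11, 23, 24 and 46 lie outside it. Bmp10, a right atrial gene, was below 20 CPM in 10 of 24 libraries labelled right atrium and at or above it in 5 of 24 labelled left atrium. Bmp10 was not used to choose the 17, so atrial libraries that only Bmp10 set against their label remain in the values without them. Results that rest on these libraries are given with and without them; 16 of the 17 were left out together, and library 46 in addition where the chambers or sexes were compared.

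Together the collagens took a median of 0.160% of all counts, from 0.0373% in naïve male ventricle library 33 to 0.391% in high-dose male ventricle library 65. To compare genes with one another, counts were also divided by coding length (RPKM, CPM per kilobase of coding sequence). On that scale 21 collagens had a median of at least 1 RPKM over the 72 libraries and 9 of at least 10 RPKM. Counts were found in every library for 27 members, whereas Col2a1, Col6a4, Col9a1, Col10a1 and Col24a1 had 0 counts in more libraries than not. Col2a1 and Col9a1 encode cartilage collagens and Col10a1 a collagen of growth plate chondrocytes.

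Fibrillar and basement membrane chains stood at the top of the order. The highest medians were those of Col1a2 at 56.4 RPKM, Col3a1 at 51.1 RPKM and Col4a1 at 48.7 RPKM, ahead of Col6a1 (33.3 RPKM), Col4a2 (31.7 RPKM), Col15a1 (27.9 RPKM), Col6a2 (26.8 RPKM) and Col1a1 (24.9 RPKM). These 8 genes held 79% of the collagen counts. Col5a2, a collagen V chain, followed at 10.3 RPKM, and then Col8a1 (9.94 RPKM), whose product lies below endothelium, the fibril-associated Col14a1 (7.68 RPKM), Col4a5 (6.84 RPKM) and Col5a1 (5.90 RPKM). The ranges over libraries of neighbours in this order overlapped, as the plot of levels shows. At the low end of the genes detected in most libraries were Col7a1, the anchoring fibril collagen of skin, at a median of 0.0417 RPKM and Col17a1, a transmembrane collagen of epithelial cells, at 0.0411 RPKM.

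**Figure D1:**
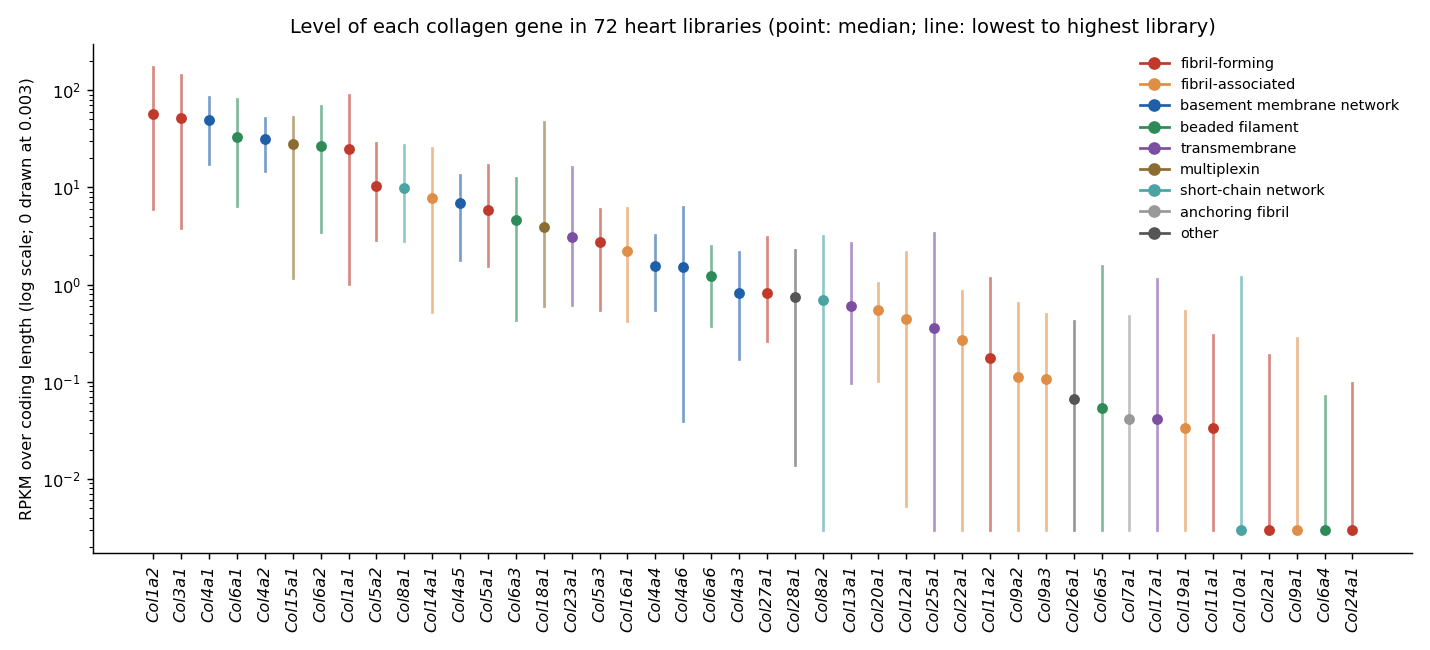
Level of each collagen on a log axis in RPKM, with the point at the median of the 72 libraries, the line from the lowest to the highest library, 0 drawn at the foot of the axis and colours for the structural classes. Col1a2 is at the top with a median of 56.4 RPKM, and the ranges of neighbouring genes overlap.

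Chains that assemble into one protein kept to ranges of their own within a library. Col1a2 exceeded Col1a1 per length in every library, with a median ratio of 2.24 (range 1.47 to 5.94), although the collagen I protein contains more of the Col1a1 chain. Col4a1 exceeded Col4a2 by a median ratio of 1.48 (1.03 to 2.42), and Col6a1 was at a median of 1.18 times Col6a2 (0.981 to 1.88) and 6.50 times Col6a3 (4.21 to 20.4). The head-to-head pair Col4a3 and Col4a4 had a median Col4a4 to Col4a3 ratio of 1.89 (0.984 to 4.17). For the other head-to-head pair of collagen IV genes on chromosome X, Col4a5 and Col4a6, whose starts lie 1308 bases apart, the ratio moved with the chamber: its median was 4.67 in right atria, 4.47 in left atria and 16.8 in ventricles. Without the 17 libraries the range was 2.12 to 9.08 in the right atrium (n = 18), 2.25 to 6.82 in the left atrium (n = 18) and 7.80 to 109 in the ventricles (n = 19). The ventricular range thus overlapped that of the right atrium and not that of the left. These ratios are a description without a test.

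The chambers were compared to ask which collagens distinguish atrial from ventricular wall. By median, collagen RNA was higher in both atria than in the ventricles, and the fibril-forming class held the larger part of the gap (789.7, 854 and 436 CPM in right atrium, left atrium and ventricles); the sums were not tested. The genes that passed the test over all libraries were others than the 8 most abundant. The summed collagen level had a median of 1808 CPM in the right atrium, 1846 CPM in the left atrium and 1238 CPM in the ventricles, and its ranges overlapped widely (845 to 2728, 799.7 to 2812 and 373 to 3913 CPM). The fibril-forming class made up a median of 44.0%, 45.5% and 35.5% of the collagen counts in right atrium, left atrium and ventricles, and the basement membrane class 26.1%, 24.0% and 33.4%. In one edgeR quasi-likelihood fit over all 72 libraries with condition and sex as terms, 16 of 37 collagens tested rose in the right atrium relative to the ventricles and 0 fell (Benjamini-Hochberg adjusted p under 0.05), against a background of 32.7% of all genes called. In the left atrium 10 of 37 rose and 0 fell, with 19.8% of all genes called. The median log2 fold change of the collagens was 0.43 for right atrium against ventricles and 0.41 for left atrium against ventricles, beside 0.02 over all genes in both. In the 18 naïve libraries alone, 0 of 33 collagens passed edgeR's test in either atrium, with 8 in the right and 6 in the left at an unadjusted p under 0.05; 0.00664% and 0% of all genes were called there, and the median log2 fold change of the collagens was 0.56 and 0.44.

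By class, the right atrium was called higher than the ventricles for 4 of 6 basement membrane genes, 3 of 4 transmembrane genes, 3 of 7 fibril-associated genes, 2 of 9 fibril-forming genes and 1 of 5 beaded filament genes. Both multiplexin genes, Col15a1 and Col18a1, missed the threshold. Col18a1 had a ventricular maximum of 257 CPM in library 65 and of 21.8 CPM without the 17 libraries, and without the 16 libraries it rose in the right atrium (1.21, SE 0.18, adjusted p = 2.49e-07) and in the left (1.27, SE 0.18, adjusted p = 4.81e-08). Among the calls of mean level of at least 1 CPM, the largest log2 fold changes for the right atrium were those of Col25a1 (1.74, SE 0.41, adjusted p = 0.000944), Col23a1 (1.19, SE 0.27, adjusted p = 0.000677) and Col12a1 (1.15, SE 0.40, adjusted p = 0.0219). For the left atrium they were those of Col25a1 (1.25, SE 0.40, adjusted p = 0.0216), Col4a6 (1.17, SE 0.39, adjusted p = 0.0296) and Col23a1 (1.00, SE 0.27, adjusted p = 0.00768). Col23a1 and Col25a1 encode transmembrane collagens, and Col12a1 encodes a fibril-associated collagen of tendon and other dense connective tissue.

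Col4a6 (Entrez 94216, chrX:141165403-141474076, minus strand) separated the chambers most clearly once the 17 libraries were set aside. Over all libraries its level ran from 1.46 to 21.2 CPM in the right atrium (median 9.32), from 0.750 to 27.7 CPM in the left atrium (median 9.35) and from 0.198 to 31.9 CPM in the ventricles (median 1.52). Without the 17 libraries, the ranges were 4.41 to 21.2 CPM, 5.55 to 27.7 CPM and 0.198 to 4.46 CPM, so that the highest ventricular library lay just above the lowest right atrial one. With 16 libraries left out, its log2 fold change against the ventricles was 2.64 in both atria (SE 0.21, adjusted p = 1.53e-15 in the right and SE 0.20, adjusted p = 1.12e-15 in the left).

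Col12a1 (Entrez 12816) had medians of 6.26 CPM in the right atrium, 6.88 CPM in the left atrium and 1.22 CPM in the ventricles. Its ranges were 0.979 to 16.1, 0.158 to 20.3 and 0.0496 to 16.1 CPM, so the chambers overlapped. Col23a1 (Entrez 237759) had medians of 7.25, 5.71 and 2.55 CPM, with ranges of 1.40 to 27.2, 1.04 to 25.2 and 1.10 to 11.5 CPM, again overlapping. Col25a1 (Entrez 77018) was low throughout, with medians of 1.53, 0.778 and 0.504 CPM, and 4 libraries had no count. Col5a2, the fibril-forming member with the smallest p, had medians of 58.8 CPM in the right atrium, 55.6 CPM in the left atrium and 28.9 CPM in the ventricles. Without the 17 libraries its ventricular range of 13.3 to 34.6 CPM met the right atrial range of 34.4 to 129 CPM only at the edge and lay below the left atrial range of 36.2 to 82.4 CPM.

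**Figure D2:**
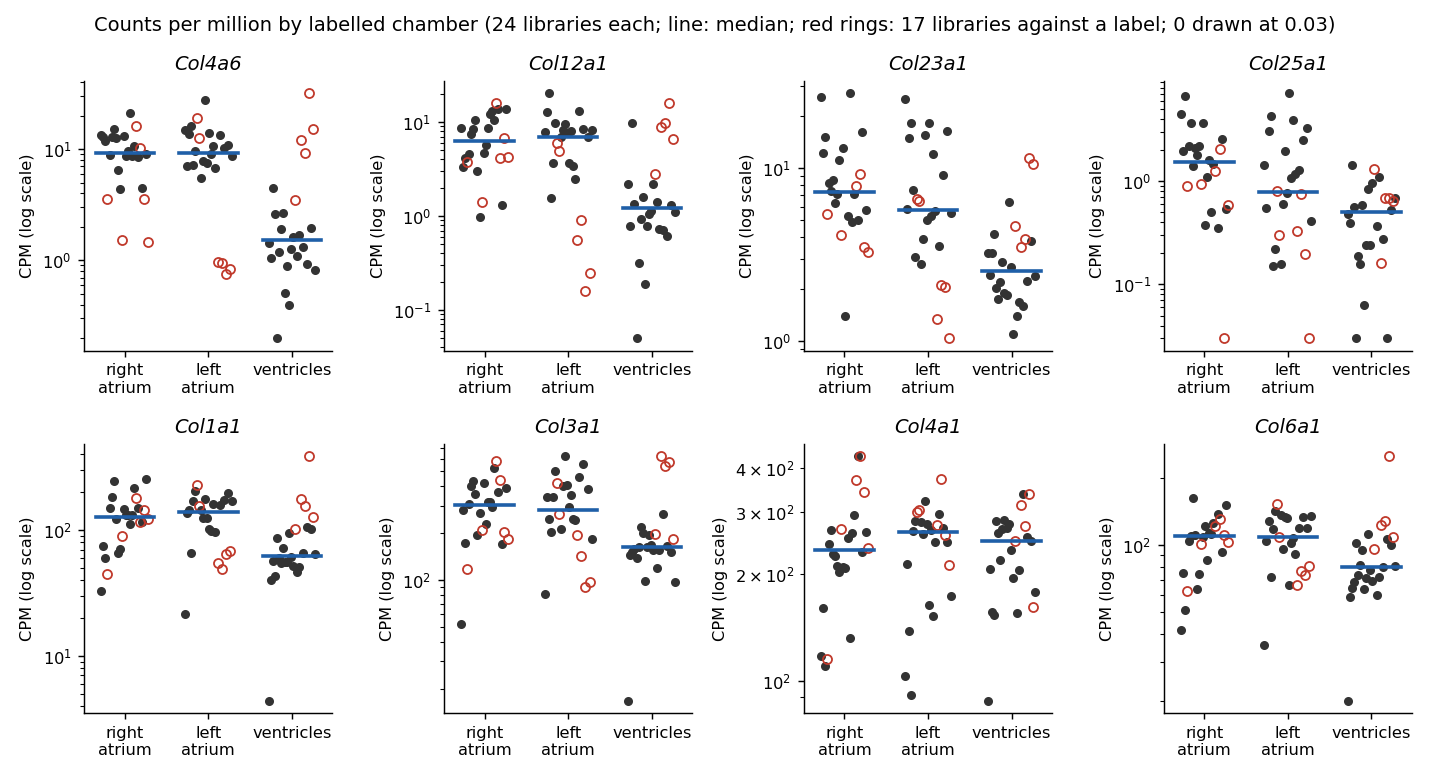
Levels by chamber in CPM on a log axis, with 1 point per library, lines for the median, 0 drawn at 0.03 and open rings for the 17 libraries whose sex or chamber genes went against a label. Among the filled points, Col4a6 lies between 4.41 and 21.2 CPM in the right atrium and between 0.198 and 4.46 CPM in the ventricles.

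The abundant chains differed less. Col1a1 had medians of 127 CPM in the right atrium, 139 CPM in the left atrium and 62.7 CPM in the ventricles, with a ventricular maximum of 387 CPM in library 65 and of 105 CPM without the 17 libraries. Col3a1 had medians of 301, 280.5 and 163 CPM. Both missed the threshold over all libraries (right atrium against ventricles, log2 fold change 0.41, SE 0.23, adjusted p = 0.155 for Col1a1 and 0.38, SE 0.21, adjusted p = 0.169 for Col3a1). Without the 16 libraries both passed it, at 0.83 (SE 0.23, adjusted p = 0.00194) and 0.74 (SE 0.20, adjusted p = 0.00186). Col6a1 had medians of 109.5, 108 and 79.9 CPM, and its log2 fold change between right atrium and ventricles was 0.03 (SE 0.14, adjusted p = 0.894). Col4a1 had medians of 235 CPM in the right atrium, 263 CPM in the left atrium and 249 CPM in the ventricles, at a log2 fold change of -0.12 (SE 0.14, adjusted p = 0.539) for the right atrium.

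Without the 16 libraries, 24 of 37 collagens rose and 2 fell in the right atrium relative to the ventricles, at a background of 53.4% of all genes called, and 24 rose and 1 fell in the left atrium, at 51.2%. Of the 9 fibril-forming genes tested, 7 then rose in the right atrium and 8 in the left. The collagens lower in the right atrium were Col4a1 (log2 fold change -0.34, SE 0.15, adjusted p = 0.0477) and Col4a2 (-0.45, SE 0.14, adjusted p = 0.00685), which share a divergent start and form the common basement membrane network. Col4a2 was also lower in the left atrium (-0.39, SE 0.14, adjusted p = 0.0152). The minor chains of the same family, Col4a3, Col4a4, Col4a5 and Col4a6, were higher in both atria with and without these libraries. When library 46 was left out as well, Col4a1 no longer passed (-0.33, SE 0.15, adjusted p = 0.0609) and Col4a2 still did (-0.45, SE 0.15, adjusted p = 0.00887).

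**Figure D3:**
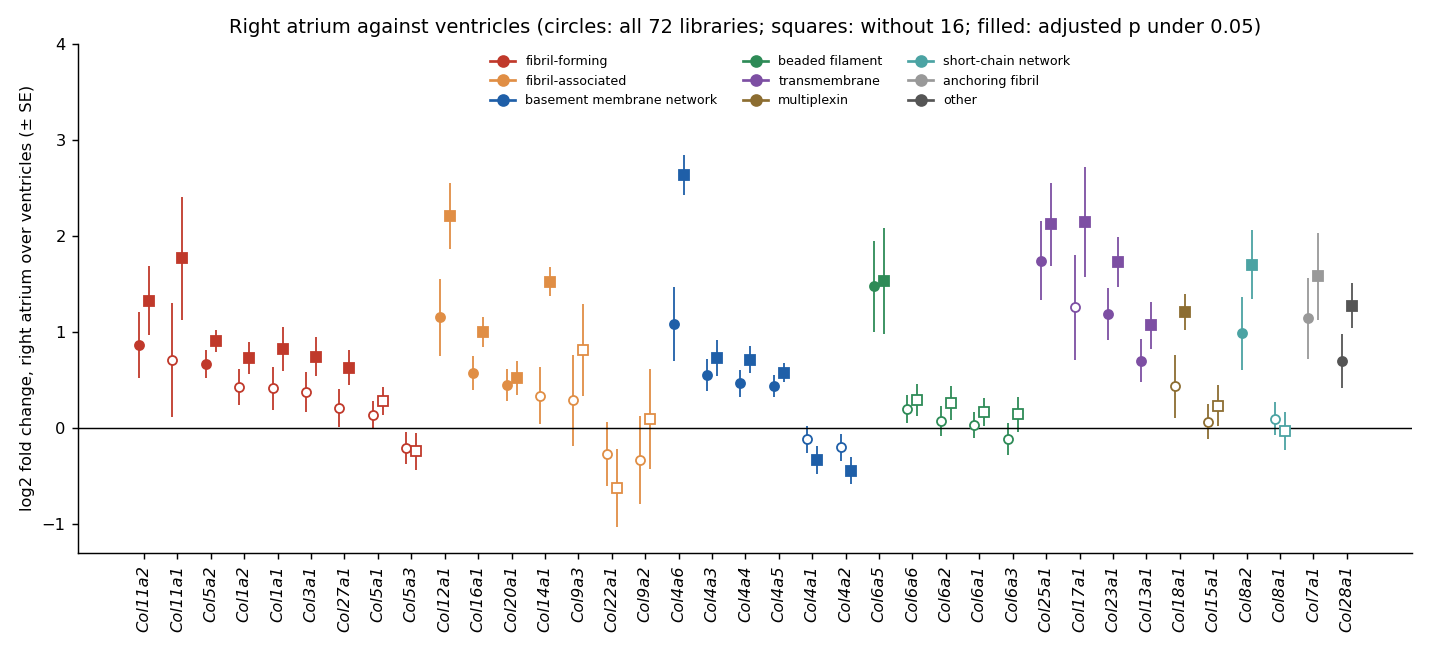
Log2 fold change of each tested collagen in the right atrium against the ventricles, over all 72 libraries and without the 16 libraries, with standard errors as bars and filled symbols for adjusted p under 0.05. Col4a6 moves from 1.09 to 2.64 when the 16 libraries are left out, whereas Col4a1 and Col4a2 lie below 0 in both fits.

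Cell type markers moved with the chambers as well, and their part in the collagen differences was not tested. The sum of 6 fibroblast markers had medians of 599.9 CPM in the right atrium (range 331 to 960), 589.7 CPM in the left atrium (168 to 1004) and 317 CPM in the ventricles (135 to 767). The sum of 4 mesothelial markers, which label the epicardial surface, had medians of 107, 81.7 and 18.0 CPM, and that of 5 adipocyte markers 27.6, 76.3 and 2.76 CPM. The sum of 5 cartilage markers had medians of 83.2, 58.9 and 15.1 CPM. Of these markers, Comp had medians of 63.2, 42.2 and 7.31 CPM and Sox9 of 16.4, 13.3 and 5.96 CPM. The cartilage matrix gene Matn1 had a median of 0 in each chamber. The sum of 5 endothelial markers hardly moved, with medians of 797, 785 and 799 CPM. Between right and left atrium, 0 of 37 collagens passed edgeR's quasi-likelihood test (0.00642% of all genes called), 1 collagen had an unadjusted p under 0.05, and DESeq2 called 0. Given the Bmp10 levels, the naming of right and left atria is itself uncertain.

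Of 42 tested genes that fold, process and bind collagens, 20 rose in the right atrium relative to the ventricles and 1 fell, where 17.5% of all genes were higher and 15.2% lower. In the left atrium 15 rose and 0 fell, where 11.5% of all genes were higher and 8.32% lower. The right atrial calls comprised 8 of 18 folding and modifying enzymes and chaperones, 6 of 8 secretion and propeptide processing genes, 4 of 7 fibril partners and 2 of 9 collagen receptors. The smallest p values there were those of Ddr1, a receptor tyrosine kinase for collagen (log2 fold change 1.12, SE 0.18, adjusted p = 1.02e-05), and of the prolyl 3-hydroxylase genes P3h1 (0.57, SE 0.10, adjusted p = 2.94e-05) and P3h3 (0.68, SE 0.13, adjusted p = 5.33e-05). P4ha2, a catalytic subunit of collagen prolyl 4-hydroxylase, was the gene that fell (-0.37, SE 0.13, adjusted p = 0.0202). For the left atrium the smallest p values were those of P3h1 (0.50, SE 0.10, adjusted p = 0.00102), the procollagen protease gene Tll1 (1.45, SE 0.30, adjusted p = 0.00102) and Ddr1 (0.89, SE 0.18, adjusted p = 0.00113).

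Females and males were compared over all chambers and conditions. Each mouse gave up to 3 libraries, which entered as independent because the labels do not tell which share a mouse, so the p-values between the sexes are too small. With all 72 libraries, 0 of 37 collagens passed edgeR's quasi-likelihood test (0.289% of all genes called); 3 had an unadjusted p under 0.05, and DESeq2 called 0. Without the 16 libraries, Col14a1 was higher in females by 1.23 on the log2 scale (SE 0.13, adjusted p = 4.68e-10) and Col27a1, a fibril-forming chain of cartilage, by 0.55 (SE 0.15, adjusted p = 0.0343), at a background of 2.02% of all genes called. Col14a1 encodes a fibril-associated collagen that limits the diameter of collagen I fibrils. With all libraries its log2 fold change was 0.56 (SE 0.24, adjusted p = 0.711). Leaving out library 46 as well added Col4a6 (0.59, SE 0.16, adjusted p = 0.0269).

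Without the 17 libraries, Col14a1 (Entrez 12818, chr15:55307750-55520803, plus strand) ran from 63.8 to 105 CPM in female right atrium (median 76.5, n = 6) and from 16.8 to 62.2 CPM in male right atrium (median 37.7, n = 12). In the left atrium it ran from 44.4 to 122 CPM in females (median 76.0, n = 10) and from 18.2 to 61.2 CPM in males (median 42.9, n = 8). In the ventricles it ran from 13.4 to 48.3 CPM in females (median 26.4, n = 12) and from 4.75 to 13.2 CPM in males (median 5.75, n = 7). The sexes did not overlap in right atrium and ventricles, though the gap was narrow in both, and they overlapped in the left atrium. The fibroblast marker sum in the same libraries was also higher in females by the median, at 829 against 591 CPM in the right atrium, 732 against 542 CPM in the left atrium and 322 against 232 CPM in the ventricles, and its part in the difference was not tested. The libraries left out include those whose sex genes went against the label, so the comparison is one of the sex that both label and genes gave.

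Each condition was then compared with naïve mice, separately by sex and chamber, which gave 18 comparisons of 3 against 3 libraries that share the naïve libraries. Collagens passed the test in 1 of them, the female ventricles after the high dose, where 5 of 29 tested rose and 2 fell, at a background of 23.7% of all genes called. At the threshold of 0.0001 that the study used, 0 passed there, against 0.0286% of all genes. The share of collagens called was thus close to that of all genes. The median log2 fold change of the 29 was 0.28, beside 0.01 over all genes. All 6 libraries matched their sex and chamber labels at the Myl4 limit of 600 CPM. Naïve library 35 nevertheless had 193 CPM of Myl4. Naïve libraries 36 and 54 had 4.23 and 3.14 CPM, and the high-dose libraries 2.51 to 22.1 CPM. The bearing of this level on the calls was not tested, and the fit without library 35 is given below.

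Col18a1 (Entrez 12822, chr10:77052178-77166548, minus strand) encodes collagen XVIII, the basement membrane proteoglycan from which endostatin is cut. It was at 9.00, 9.81 and 6.72 CPM in naïve female ventricles (libraries 35, 36 and 54) and at 21.8, 12.1 and 14.1 CPM after the high dose (libraries 43, 44 and 66), with no overlap. The log2 fold change was 1.11 (SE 0.23, adjusted p = 0.00483, edgeR's quasi-likelihood test). Col1a2 (Entrez 12843, chr6:4504814-4541544, plus strand), the second chain of collagen I, was at 115, 107 and 91.4 CPM in the naïve libraries and at 159, 129 and 166 CPM after the high dose, again with no overlap (log2 fold change 0.74, SE 0.16, adjusted p = 0.00619).

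Both neighbouring collagen VI genes on chromosome 10 rose. Col6a2 (Entrez 12834, chr10:76595762-76623630, minus strand) was at 60.1, 66.7 and 72.5 CPM in the naïve libraries and at 122, 81.2 and 97.6 CPM after the high dose (log2 fold change 0.77, SE 0.18, adjusted p = 0.00976). Col6a1 (Entrez 12833, chr10:76708792-76726168, minus strand) was at 63.9, 68.4 and 79.6 CPM and at 112.5, 77.0 and 99.6 CPM (log2 fold change 0.63, SE 0.19, adjusted p = 0.0333), and here library 44 lay below the naïve maximum. The third chain, Col6a3, did not pass, at 0.28 (SE 0.20, adjusted p = 0.347). Col5a1 (Entrez 12831, chr2:27886425-28039514, plus strand) was at 21.5, 20.8 and 25.5 CPM in the naïve libraries and at 31.4, 26.2 and 28.5 CPM after the high dose (log2 fold change 0.51, SE 0.18, adjusted p = 0.0490), groups that stood just apart in CPM and overlapped after TMM normalisation.

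Col4a5 and Col8a1 fell. Col4a5 (Entrez 12830, chrX:141475385-141689234, plus strand), one of the minor collagen IV chains whose human counterpart is mutated in Alport syndrome, was at 34.8, 34.6 and 32.2 CPM in the naïve libraries and at 18.6, 26.0 and 15.4 CPM after the high dose. The 2 groups did not overlap, and the log2 fold change was -0.60 (SE 0.16, adjusted p = 0.0159). Col8a1 (Entrez 12837, chr16:57624258-57754737, minus strand), a short-chain collagen of vessel walls, was at 26.9, 23.9 and 18.1 CPM and at 12.2, 13.9 and 13.8 CPM (log2 fold change -0.59, SE 0.18, adjusted p = 0.0281). After TMM normalisation, 5 of the 29 members were higher without overlap, beside 20.4% of all genes, and 2 were lower, beside 20.6%. The 5 were Col18a1, Col1a2 and Col6a2, with Col13a1 and Col6a6, which were not called. The 2 were Col4a5 and Col8a1.

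Of the abundant fibril-forming and basement membrane chains, Col1a1, Col3a1 and Col4a1 did not pass, although other members of both classes did. Col1a1 was at 57.1, 43.2 and 65.8 CPM in the naïve libraries and at 94.8, 60.7 and 102 CPM after the high dose (log2 fold change 0.82, SE 0.28, adjusted p = 0.0707). Col3a1 was at 152, 159 and 264 CPM and at 195, 167 and 152 CPM (-0.02, SE 0.25, adjusted p = 0.967). Col4a1 was at 157, 154 and 337 CPM and at 277, 234 and 249 CPM (0.37, SE 0.39, adjusted p = 0.537). The naïve library 54 stood above the other naïve libraries in both Col3a1 and Col4a1.

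**Figure D4:**
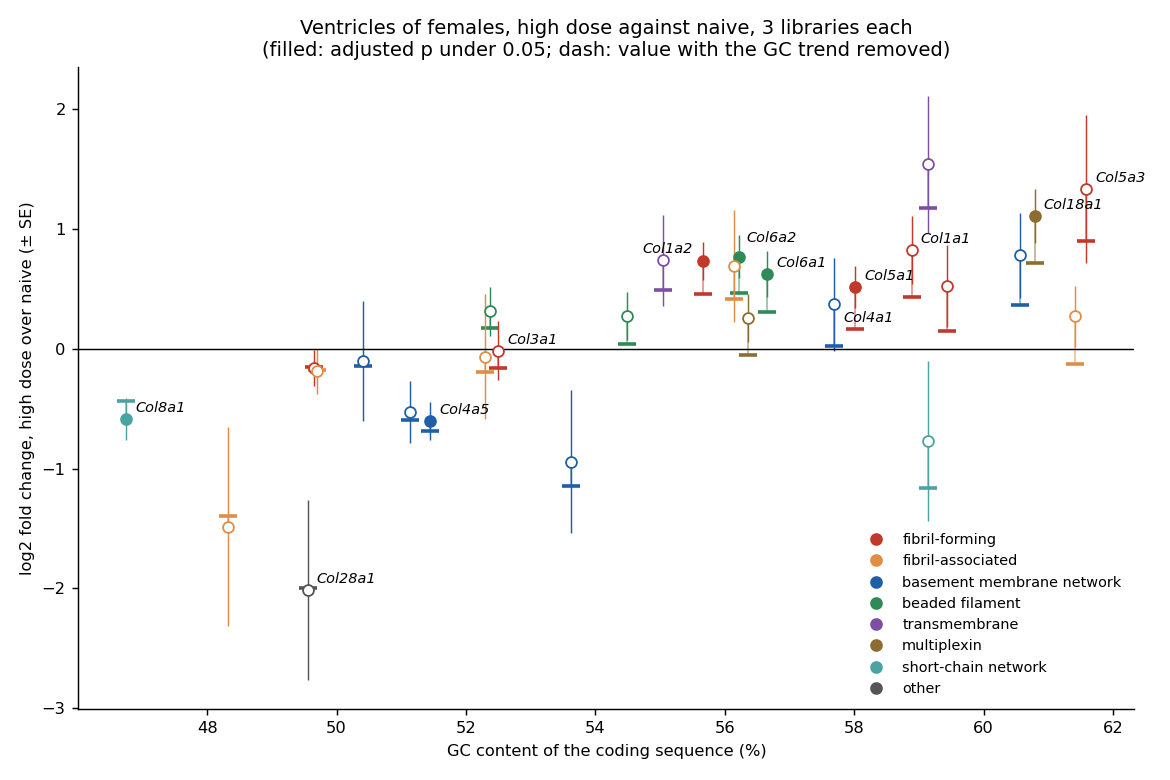
Log2 fold change of the 29 tested collagens in female ventricles after the high dose against naïve, plotted against the GC content of the coding sequence in percent; bars are standard errors, filled points passed adjusted p under 0.05 and dashes give the value with the GC trend removed. The 5 that rose have 55.7 to 60.8% GC, and the 2 that fell, Col4a5 and Col8a1, have 51.5 and 46.8%.

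The genes that rose and those that fell also differed in base composition, whose part in the result was not tested gene by gene. The coding sequences of the 5 collagens that rose had 55.7 to 60.8% GC, and those of Col4a5 and Col8a1 51.5% and 46.8%. Among members not called, Col8a2 (59.1% GC) had a log2 fold change of -0.77 and Col6a6 (52.4% GC) of 0.31. Across all genes of a library, the slope of log2 CPM on GC content per 10 points was below 0 in all 18 naïve libraries (median -0.18) and in 4 of 18 high-dose libraries (median 0.12). In the 3 naïve female ventricles it lay between -0.27 and -0.22, and in the 3 high-dose ones between 0.02 and 0.25. When the trend on GC content was removed from each library, an alternative chosen after seeing the data, 3 of 29 collagens passed, at a background of 12.8%. They were Col4a5 (-0.69, SE 0.16, adjusted p = 0.0120), Col1a2 (0.45, SE 0.14, adjusted p = 0.0437) and Col18a1 (0.72, SE 0.22, adjusted p = 0.0439). Col6a2 (0.47, adjusted p = 0.0920), Col8a1 (-0.44, adjusted p = 0.116), Col6a1 (0.31, adjusted p = 0.295) and Col5a1 (0.16, adjusted p = 0.575) did not.

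The calls also depended on single libraries. Each of the 6 libraries was left out in turn: Col18a1 and Col1a2 passed in 6 of the 6 fits, Col6a2 in 4, Col4a5 in 3, and Col6a1, Col5a1 and Col8a1 in 2 each. With a naïve library left out, the collagens called numbered 3 of 30 without library 35 (10.9% of all genes), 3 of 31 without library 36 (12.9% of all genes) and 13 of 31 without library 54 (19.3% of all genes). With a high-dose library left out, they numbered 3 of 30 without library 43 (16.1% of all genes), 8 of 30 without library 44 (27.2% of all genes) and 3 of 31 without library 66 (13.6% of all genes). In an edgeR fit of all 4 conditions of female ventricles together, 0 of 31 collagens passed and 11 had an unadjusted p under 0.05, while 4.96% of all genes were called.

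Of the other genes of the pathway, 10 of 41 tested rose in the same comparison and 4 fell, where 12.2% of all genes were higher and 11.4% lower. The matrix glycoprotein gene Sparc, whose product binds collagen, rose most firmly (log2 fold change 1.05, SE 0.15, adjusted p = 0.000819). Also higher were Serpinh1, the collagen-specific chaperone (0.76, SE 0.15, adjusted p = 0.00386), and Pcolce, which enhances removal of the procollagen C-propeptide (0.90, SE 0.18, adjusted p = 0.00471). The modifying enzyme and cofactor genes Plod3 (0.61), Crtap (0.65), P4ha2 (0.67) and P3h4 (0.61) and the receptor genes Ddr1 (0.80) and Mrc2 (0.55) rose too, as did Tnxb (0.46). The genes that fell were the small leucine-rich proteoglycan genes Lum (-0.89, SE 0.21, adjusted p = 0.0135) and Dcn (-0.47, SE 0.15, adjusted p = 0.0379), Postn, which encodes periostin (-0.86, SE 0.18, adjusted p = 0.00645), and Mia3, needed for export of procollagen from the endoplasmic reticulum (-0.51, SE 0.13, adjusted p = 0.0122). With the GC trend removed, Sparc (0.91) and Pcolce (0.54) still rose, Postn (-0.60) still fell, and Fkbp10, an endoplasmic reticulum chaperone of collagen, fell (-0.78).

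Beside these differences, the Fibroblast marker sum was 267 to 476 CPM in the naïve and 266 to 318 CPM in the high-dose female ventricles. Cardiac myocyte markers, 4 in all, summed to 38710 to 45730 CPM in the naïve and to 54460 to 70720 CPM in the high-dose libraries, with no overlap. Their part in the collagen differences was not tested.

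In male ventricles after the high dose, 0 of 29 collagens passed edgeR's quasi-likelihood test (0% of all genes called), 0 had an unadjusted p under 0.05 and DESeq2 called 0. The log2 fold change was above 0 for 27 of them, with a median of 0.59 beside 0.07 over all genes. Both groups spread widely: Col18a1 was at 3.29, 9.12 and 33.6 CPM in naïve male ventricles (libraries 33, 34 and 53) and at 9.05, 8.40 and 257 CPM after the high dose (libraries 41, 42 and 65). Libraries 53 and 65 are both among those labelled male whose sex genes were female. A difference between the sexes in the effect of the high dose was tested as an interaction and passed for 0 of 31 collagens in the ventricles (0% of all genes; 0 with an unadjusted p under 0.05). The standard errors of these differences ran from 0.40 to 1.88 on the log2 scale, so the result does not show that the sexes responded alike. None of the 9 interactions by chamber and condition had a collagen call with edgeR or DESeq2, and 0 to 1 collagens per interaction had an unadjusted p under 0.05. Right atrial libraries 50, 56, 62 and 68 and ventricular libraries 53, 59, 65 and 71 entered under a sex label that their sex genes went against. The interactions in these chambers are thus not clean contrasts of the sexes, and values without these libraries are not given here.

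In the 17 comparisons by sex and chamber other than the female high-dose ventricles, 0 collagens passed edgeR's test. The number with an unadjusted p under 0.05 was 0 to 6 of 29 to 35 tested, beside 235 to 2613 of all genes. The 6 were those of low-dose female left atrium, where 34 collagens were tested and 2613 of 14885 genes had such a p. The background was 0.0216% of all genes in Ahr-/- female ventricles (0.00718% higher) and 0% in the others. The smallest adjusted p was 0.153, for Col4a4 in low-dose female left atrium (log2 fold change -1.05, SE 0.23), where DESeq2 called it. DESeq2 also called Col5a3 in high-dose female right atrium and Col4a6 and Col12a1 in high-dose male right atrium, and 0 collagens in the remaining comparisons.

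With both sexes in one fit per chamber, 6 libraries of a condition were set against 6 naïve ones, and 2 collagens passed, Col5a3 and Col4a5. Col5a3 (Entrez 53867, chr9:20770050-20815067, minus strand) encodes a chain of collagen V that is less widespread than the Col5a1 and Col5a2 chains. After the high dose it rose in the right atrium by 1.41 on the log2 scale (SE 0.28, adjusted p = 0.0269), where it was the 1 collagen of 36 called, at a background of 0.161%. In the ventricles after the high dose it rose by 1.13 (SE 0.36, adjusted p = 0.0345), and Col4a5 fell by 0.59 (SE 0.19, adjusted p = 0.0325), 2 of 31 tested at a background of 16%. In the left atrium after the high dose Col5a3 did not pass (1.09, SE 0.34, adjusted p = 0.127; 0.103% of all genes called).

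Over all libraries, the median level of Col5a3 was lowest in naïve mice in all 3 chambers. In the right atrium it was at 3.97 to 10.6 CPM in naïve mice (median 5.93), 12.6 to 24.4 CPM after the high dose (median 16.2), 7.67 to 18.1 CPM after the low dose (median 12.5) and 12.0 to 21.7 CPM in Ahr-/- mice (median 18.9), each with n = 6. The naïve range lay below the high-dose and Ahr-/- ranges. In the left atrium, where no condition passed, the ranges were 3.67 to 22.1, 17.6 to 27.9, 7.54 to 16.2 and 9.85 to 22.2 CPM in the same order. In the ventricles they were 2.88 to 23.3, 16.0 to 31.0, 6.07 to 18.1 and 9.91 to 17.5 CPM. In both of these chambers the naïve range overlapped the others. Among libraries 49 to 72 alone (n = 2 each), the naïve median was not the lowest there. In the left atrium it was 14.4 CPM, beside 24.2 after the high dose, 13.4 after the low dose and 13.3 in Ahr-/- mice. In the ventricles it was 20.3 CPM, beside 26.8, 9.70 and 12 CPM.

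The overlap of naïve and high-dose libraries within a chamber came from those numbered 49 to 72. Among libraries 1 to 48, Col5a3 was at 2.88 to 12.6 CPM in 12 naïve libraries of all chambers and at 12.6 to 24.4 CPM in 12 high-dose libraries, with the extremes that meet in different chambers. Among libraries 49 to 72, it was at 6.78 to 23.3 CPM in 6 naïve libraries and at 15.7 to 31.0 CPM in 6 high-dose libraries. With libraries 1 to 48 alone, Col5a3 was called in the high-dose right atrium (1.64, adjusted p = 0.0475), left atrium (1.37, adjusted p = 0.0353) and ventricles (1.90, adjusted p = 0.00405), in the right and left atrium of Ahr-/- mice (1.72, adjusted p = 0.0430 and 1.45, adjusted p = 0.0329) and in the low-dose ventricles (0.97, adjusted p = 0.0468). Over all libraries the Ahr-/- mice missed the threshold in the right atrium (1.29, SE 0.27, adjusted p = 0.0942). These comparisons share the naïve libraries. For the fits of libraries 1 to 48 the share of all genes called is not given here, so their calls cannot be set against a background. Libraries 1 to 48 also include 4, 11, 23, 24 and 46, whose Myl4 level went against the chamber label.

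Without the 16 libraries, Col5a3 in the high-dose right atrium no longer passed (1.19, SE 0.29, adjusted p = 0.273, 4 against 4 libraries), and in the high-dose ventricles it did (1.41, SE 0.39, adjusted p = 0.0131). The coding sequence of Col5a3 has 61.6% GC. With the GC trend removed it passed in the high-dose right atrium (1.25, SE 0.25, adjusted p = 0.0270) and not in the ventricles (0.75, SE 0.32, adjusted p = 0.189).

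**Figure D5:**
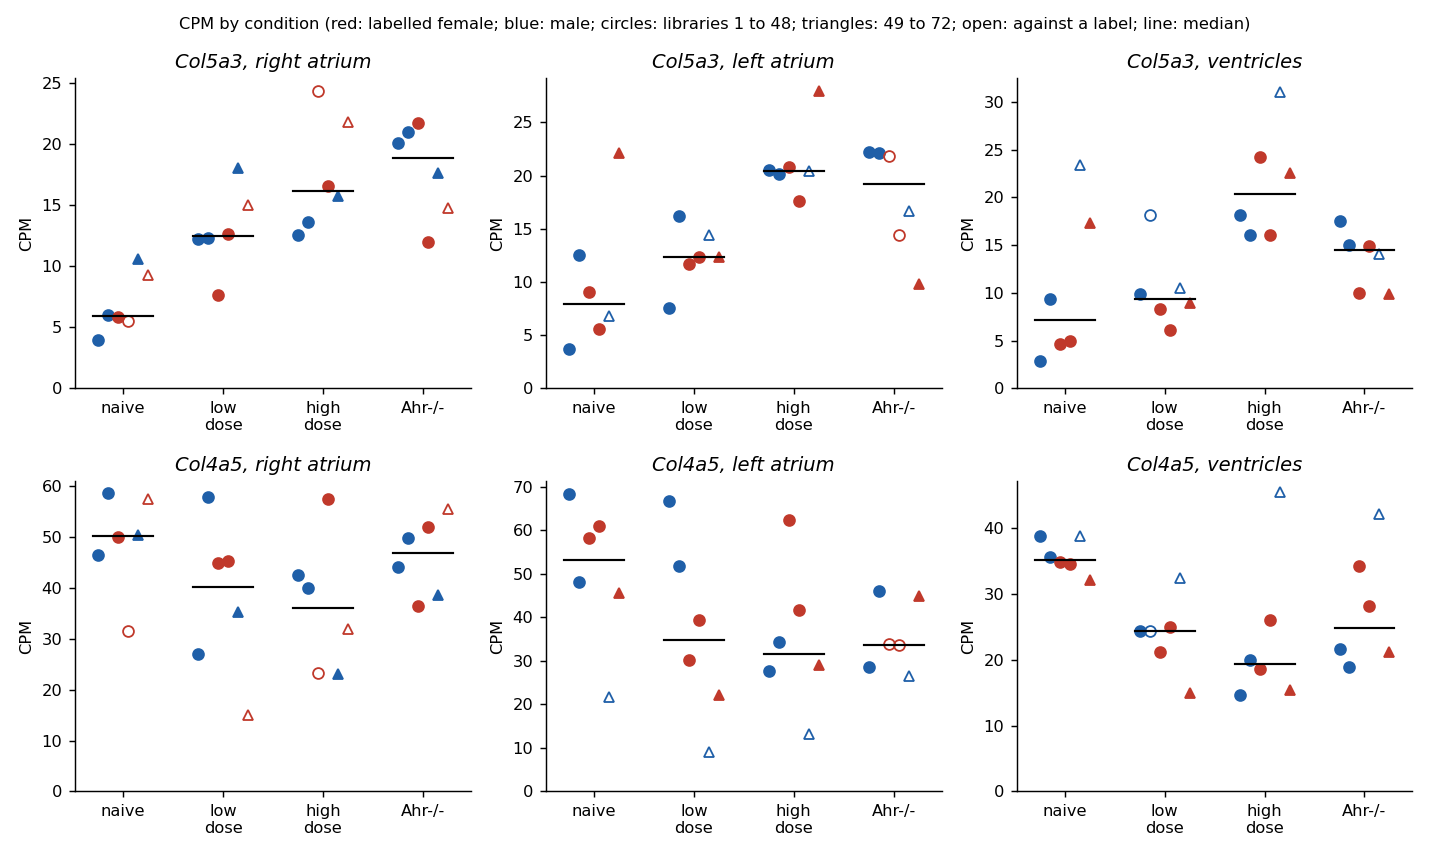
Levels of Col5a3 and Col4a5 in CPM by condition and chamber, with 1 point per library, lines for the median, red for female and blue for male labels, triangles for libraries 49 to 72 and open symbols for the 17 libraries whose sex or chamber genes went against a label. In the right atrium the naïve libraries lie between 3.97 and 10.6 CPM for Col5a3 and the high-dose libraries between 12.6 and 24.4 CPM.

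Col4a5 moved the other way in the ventricles. Its level was 32.2 to 38.9 CPM in naïve ventricles (median 35.2), 14.6 to 45.5 CPM after the high dose (median 19.3), 14.9 to 32.4 CPM after the low dose (median 24.4) and 18.9 to 42.1 CPM in Ahr-/- mice (median 24.9), each with n = 6. Without the 17 libraries the ranges were 32.2 to 38.9 CPM (n = 5), 14.6 to 26.0 CPM (n = 5), 14.9 to 24.9 CPM (n = 4) and 18.9 to 34.3 CPM (n = 5). The naïve ventricles then lay above both dose groups and overlapped the Ahr-/- mice. Over all libraries the low dose missed the threshold (-0.50, SE 0.19, adjusted p = 0.0808, 10.8% of all genes called). Without the 16 libraries Col4a5 fell after the high dose (-0.78, SE 0.15, adjusted p = 0.00144) and after the low dose (-0.59, SE 0.15, adjusted p = 0.00998), and missed the threshold in Ahr-/- mice (-0.44, SE 0.15, adjusted p = 0.0769). With the GC trend removed it passed after the high dose (-0.67, SE 0.18, adjusted p = 0.0403). In the atria after the high dose its log2 fold change was -0.41 (adjusted p = 0.621) in the right and -0.54 (adjusted p = 0.318) in the left.

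Without the 16 libraries, more collagens passed in the ventricles with both sexes in one fit, and so did a larger share of all genes. Over all libraries, 31 collagens were tested. The backgrounds there were 16.0% after the high dose, 10.8% after the low dose and 0.047% in Ahr-/- mice. The number of collagens tested without the 16 libraries is not given here. After the high dose 5 of the tested collagens rose, Col1a2 (0.86), Col5a3 (1.41), Col6a1 (0.70), Col6a2 (0.82) and Col18a1 (0.93), and 2 fell, Col4a5 (-0.78) and Col28a1 (-1.97), at a background of 25.2%. After the low dose Col1a2 (0.94) and Col16a1 (0.78) rose and Col4a5 fell, at a background of 18.3%. In Ahr-/- mice Col5a1 rose (0.87), at a background of 3.49%.

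The pathway genes in the same fits over all libraries gave 7 higher and 2 lower of 41 in the high-dose ventricles, where 16% of all genes were called. Those higher were Sparc (0.91, SE 0.28, adjusted p = 0.0309), Pcolce (0.98), Plod3 (0.52), Crtap (0.51), P4ha2 (0.63), P3h4 (0.54) and Serpinh1 (0.73). Those lower were Mia3 (-0.64, SE 0.12, adjusted p = 0.00294) and the lysyl hydroxylase gene Plod2 (-0.32, SE 0.10, adjusted p = 0.0332). In the low-dose ventricles 2 rose, Pcolce (1.00) and P3h4 (0.78), and 2 fell, Mia3 (-0.58) and Plod2 (-0.33), of 41 tested, a share close to the 10.8% of all genes called. Sparc had an adjusted p of 0.0921 in the high-dose ventricles once the GC trend was removed (0.79, SE 0.27). In both atria 0 of 42 pathway genes passed edgeR's test after either dose or in Ahr-/- mice. Per comparison, 4 to 7 of the 42 had an unadjusted p under 0.05, beside 1300 to 2707 of all 15532 or 15533 genes tested. DESeq2 called 1 there, the collagen receptor gene Ddr2, which fell after the high dose in the right atrium (-0.63, SE 0.16, adjusted p = 0.0265).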

How the data were processed

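Poly(A) RNA libraries of whole chambers were sequenced single-end on an Illumina HiSeq with an unstranded kit. Per the labels and the study's methods, the authors processed reads with CASAVA 1.8, aligned them to mm10 with TopHat and deposited raw counts per gene over coding regions; the annotation release and the handling of multimapped reads are not given in the sources used here. Totals were 11873417 to 28789382 counts per library. Of 24237 table entries, 75 matched no annotation (3.89% of counts), and none of the 44 members was among them.

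Groups were taken from the labels. Genes passing filterByExpr (minimum count 10, minimum total 15) were tested with TMM normalisation and edgeR 4.0.16's robust quasi-likelihood F test in R 4.3.3, with Benjamini-Hochberg adjustment over all genes tested and a threshold of 0.05. Comparisons with naïve mice were fitted by sex and chamber, by chamber with sex as a term, and as sex interactions; chambers and sexes were compared in a fit of all 72 libraries. The scripts were tested on simulated data. Alternatives comprised no filter, other scaling, DESeq2 1.42.0, a term for library series (1 to 48, 49 to 72), fewer libraries, each library left out and, added after seeing the data, removal of the GC trend (natural spline with 5 degrees of freedom) and omission of library 46. The labels do not tell whether 3 samples of a group came from separate litters, so p-values measure the spread between these samples. Intervals of depth cover counting error only.

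The members, the pathway and marker lists and the comparisons were chosen with earlier results of these data known. Single-library values are given for members called in a comparison with naïve mice, for Col1a1, Col3a1, Col4a1, Col6a1 and Col5a3, and between chambers for the 3 called members with the largest change per direction at a mean of at least 1 CPM; pathway genes are named where called, and between chambers by the 3 smallest p values per direction. Col5a2, Col4a6 and Col14a1 were described in more detail after their values were seen.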

Additional observations from a re-analysis of the deposited data

Results flagged for a closer look

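Among 72 sets of 6 libraries of one condition and chamber, over 6 measures, 11 held a library far from the other 5 by Dixon's criterion (0.625 for 6 values). Each was the highest of its set. The criterion allows about 1 in 20 by chance for normal values in independent sets. These values were raw CPM, and the summed level contains the single genes, so the 11 cannot be set against that rate. The summed collagen level was 2251 CPM in Ahr-/- ventricle library 59 and 3913 CPM in high-dose ventricle library 65. Col1a1 was at 386.6 CPM in library 65, at 177.6 CPM in naïve ventricle library 53 and at 254.2 CPM in low-dose right atrium library 67. Col3a1 was at 542.2 CPM in library 59 and at 576.6 CPM in library 65. Col4a1 was at 371.4 CPM in Ahr-/- left atrium library 57, and Col6a1 at 251.3 CPM in library 65. Col5a3 was at 27.91 CPM in high-dose left atrium library 64 and at 18.1 CPM in low-dose ventricle library 46. Libraries 46, 53, 57, 59 and 65 are among the 17 whose sex or chamber genes went against a label, and libraries 64 and 67 are not. Of 283 pairs of a member with a chamber and condition, none moved in opposite directions in the sexes without overlap of the groups.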

How the results depend on the processing

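Over all alternatives, 524 counts of collagens called stayed within 1.5 times the value reported and 47 did not. The 524 include comparisons with 0 collagens called both times, so they do not measure how stable the calls were. Of the values of single genes, 283 stayed on their side of the threshold, 34 newly passed it and 52 lost it. Among values that passed in either fit, 0 changed direction. Changes of sign in values that passed in neither fit were counted as staying. The causes were not tested. Where the share of all genes called is given neither here nor above, a count cannot be set against a background. Such a count is not a result about the collagens alone. Between right atrium and ventricles the collagens called numbered 0 in naïve libraries only, 26 without the 16 libraries and 25 without these and library 46; between left atrium and ventricles 0, 25 and 24, and 24 in libraries 1 to 48; between the sexes 2 in libraries 1 to 48, 2 without the 16 libraries and 3 without these and library 46. In high-dose female ventricles the collagens called numbered 3 with the GC trend removed. A term for library series gave 11, where 1780 of all 14409 genes were higher and 1651 lower. There were 0 at an adjusted p under 0.0001, 0 with all 4 conditions in one fit, 0 in that fit without the 16 libraries, and 3 to 13 with single libraries left out. In that fit without the 16 libraries male ventricles gave 1 in Ahr-/- mice, 4 after the high and 2 after the low dose. With libraries 1 to 48, high-dose male ventricles gave 2 and Ahr-/- female left atrium 9. The latter set libraries 23 and 24, at a ventricular Myl4 level (48.7 and 5.09 CPM), against naïve libraries 19 and 20 (2075 and 4912 CPM). Condition and chamber thus cannot be told apart there. Libraries 23 and 24 also enter the Ahr-/- left atrium count with both sexes, and they alone remain in that female group without its replicate 3. Leaving out single libraries gave 0 to 1 in Ahr-/- female left atrium (1 without its replicate 3) and 0 to 4 in Ahr-/- female ventricles (4 without its replicate 1). DESeq2 called 1 in high-dose female right atrium, 2 in high-dose male right atrium and 1 in low-dose female left atrium. With both sexes in one fit, high-dose ventricles gave 6 with DESeq2, 1 with the GC trend removed, 5 in libraries 1 to 48, 7 with the series term, 0 with library size only and 7 without the 16 libraries. High-dose right atrium gave 0 without the 16 libraries, and high-dose left atrium 1 with DESeq2 and 2 in libraries 1 to 48. Ahr-/- right atrium gave 1 with DESeq2, 2 in libraries 1 to 48, 1 with the series term and 1 with library size only, Ahr-/- left atrium 3 in libraries 1 to 48, and Ahr-/- ventricles 1 without the 16 libraries. Low-dose ventricles gave 2 in libraries 1 to 48 and 3 without the 16 libraries. Scaling by library size only moved the all-gene median log2 fold change from 0.02 to 0.22 between right atrium and ventricles and from 0.01 to -0.17 in high-dose female ventricles, where 25.6% of all calls were then higher instead of 51.7%. No paired analysis was possible because the labels share no replicate numbers between groups.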
